A study of Mus musculus with 18 samples.

Results

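Retinoid handling genes were followed in mouse ESD3 embryonic stem cells with and without knockdown of HPRT, the purine salvage enzyme hypoxanthine phosphoribosyltransferase. The 9 genes were Crabp1, Crabp2, Stra6, Aldh1a1, Aldh1a2, Aldh1a3, Dhrs3, Cyp26a1 and Cyp26b1, taken from 30869 gene symbols on the array as every probe that carries one of these symbols, which gave 14 probes. They had been picked with signals of these same cells in view, so their levels and differences are given as a description, without p-values. The WT control cells carried a shRNA against luciferase, and the HPRT-knockdown cells a shRNA against human HPRT, both delivered by a viral vector and selected with puromycin. ESD3 cells come from mouse strain 129s2/SvPas. Both cell types were studied at the ES stage, on fibroblast feeder cells with LIF and bFGF, at the stage of the spherical neural mass (SNM), and at the neuronal stage, after differentiation towards dopaminergic neurons. No line with restored HPRT was included. Each of the 6 conditions was read on 3 Illumina MouseWG-6 v2 arrays, all 3 from 1 pool of RNA of replicate cultures.

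Retinoids are vitamin A and its derivatives. Retinol reaches cells bound to carrier proteins, is oxidized to retinal and then to retinoic acid, and retinoic acid binds nuclear receptors that sit on DNA and switch on target genes. Aldehyde dehydrogenases of the Aldh1a family carry out the last oxidation, enzymes of the Cyp26 family destroy retinoic acid, and cellular binding proteins hold it inside the cell. In embryos this pathway patterns the hindbrain and spinal cord and drives neuronal differentiation, and some Cyp26 and receptor genes are themselves targets of retinoic acid.

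All values are log2 signals after background correction, with an offset of 16 added before the logarithm, so that 4 is the floor of the scale and a difference understates the change of a dim gene. An SD, a standard error or a p-value covers the error of the arrays and not the spread between cultures. The arrays of a condition share an RNA pool, so a difference between conditions is one between pools. A probe counts as detected on an array at a detection p-value under 0.05. It was tested where all 3 arrays of at least 1 compared condition detected it, and it was called at an adjusted p-value under 0.05 from limma and a change of at least 1.5-fold. The arrays detected between 18827 and 22202 of 45281 probes, and the lowest correlation between arrays of one condition was 0.992. The targeted gene, listed as Hprt1, had a signal 94.1% lower in knockdown cells at the ES stage, 70.5% lower at the SNM stage and 95.4% lower at the neuronal stage. As these were bulk cultures, fewer cells of a type and less RNA per cell cannot be told apart. Of the 9 genes, 8 had a probe detected on all arrays of at least 1 condition, and 10 of their 14 probes were so detected.

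The retinoic acid binding proteins were lower in knockdown cells at both later stages. Crabp1, on chromosome 9, encodes cellular retinoic acid binding protein 1. In control cells its signal was 7.73, 7.47 and 7.76 on the ES arrays, 10.86, 10.87 and 10.82 on the SNM arrays, and 9.32, 9.29 and 9.27 on the neuronal arrays. In knockdown cells it was 7.39, 7.41 and 7.38, then 9.12, 8.88 and 8.97, and then 8.01, 8.06 and 7.96. Both cell types therefore had their highest level at the SNM stage, and the knockdown arrays lay below the control arrays at every stage without overlap. The difference, knockdown minus control, was -0.26 (standard error 0.07) in ES cells, -1.86 (0.07) in SNM cells, a signal 72.5% lower, and -1.28 (0.07) in neuronal cells, 58.9% lower. Ordered from high to low, the conditions ran control SNM, control neuronal, knockdown SNM, knockdown neuronal, control ES and knockdown ES, with no overlap between neighbours.

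Crabp2, on chromosome 3, encodes the second such protein, which is known to hand retinoic acid to its receptor in the nucleus. Its control signals were 5.99, 5.89 and 5.75 in ES cells, 9.10, 8.97 and 8.78 in SNM cells, and 7.10, 6.91 and 6.85 in neuronal cells. The knockdown signals were 5.86, 5.54 and 5.59, then 6.58, 6.65 and 6.46, and then 5.46, 5.28 and 4.88. The peak at the SNM stage thus stood 3.08 (standard error 0.13) above the ES stage in control cells and 0.90 (0.13) above it in knockdown cells. Knockdown and control arrays overlapped at the ES stage, where the difference was -0.21 (0.13). They were apart later, with differences of -2.38 (0.13) at the SNM stage, a 5.21-fold lower signal, and -1.75 (0.13) at the neuronal stage. At the neuronal stage the knockdown mean, 5.21 ± 0.30 (SD, n = 3 arrays), was the lowest of the 6 conditions.

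**Figure D1:**
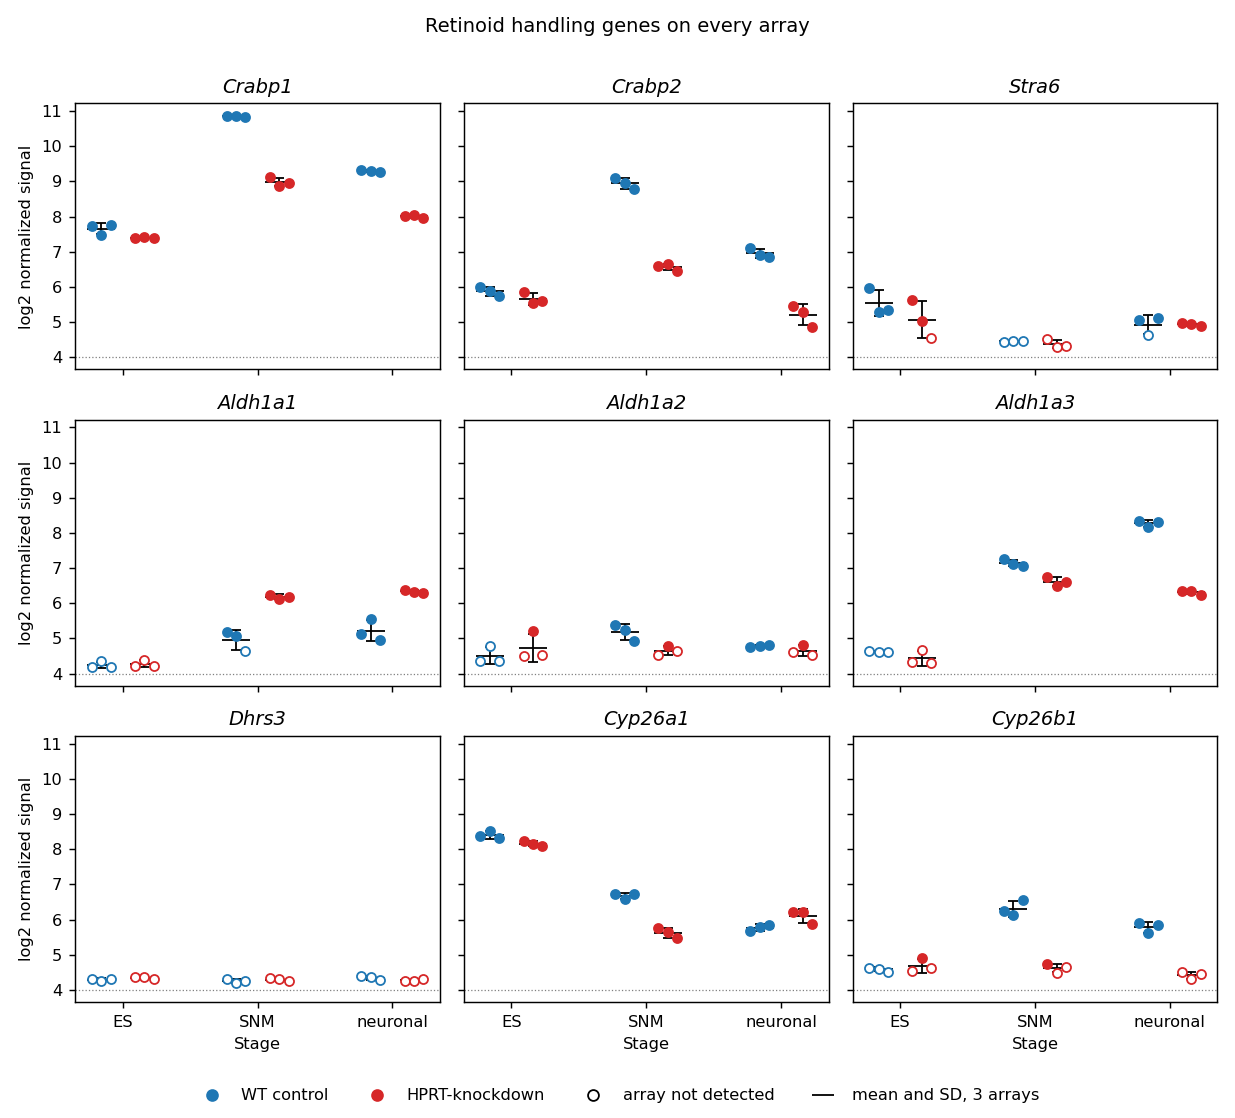
Log2 normalized signal (vertical axes) of the 9 genes on every array, by stage (horizontal axes), for WT control (blue) and HPRT-knockdown cells (red). Open circles are arrays that did not detect the probe, bars are the mean and SD of 3 arrays of one RNA pool, and the dotted line is the floor of 4; Crabp1 and Crabp2 peak at the SNM stage in control cells at 10.85 and 8.95, and Dhrs3 stays near the floor throughout.

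Stra6, on chromosome 9, encodes the membrane receptor that takes up retinol from its serum carrier. Its brighter probe read 5.98, 5.30 and 5.34 in control ES cells and 5.64, 5.03 and 4.56 in knockdown ES cells, the last of these not detected. The arrays of the cell types overlapped, and the difference was -0.47 (standard error 0.22). At the SNM stage the probe was detected on none of the arrays of either cell type. It was detected again at the neuronal stage on 2 of 3 control arrays, with a mean of 4.93 ± 0.26, and on 3 of 3 knockdown arrays, with a mean of 4.94 ± 0.05. The control signal was at least 1.71-fold lower in SNM than in ES cells. The second Stra6 probe was detected on no array.

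Of the 3 aldehyde dehydrogenases that make retinoic acid, Aldh1a1 was higher and Aldh1a3 lower in knockdown cells. Aldh1a1, on chromosome 19, encodes retinal dehydrogenase 1. It was not detected on any ES array of either cell type. Control SNM arrays read 5.19, 5.06 and 4.65, of which the last was not detected, and knockdown SNM arrays 6.25, 6.11 and 6.19. Neuronal arrays read 5.14, 5.57 and 4.96 in control and 6.39, 6.33 and 6.30 in knockdown cells. All knockdown arrays lay above all control arrays at both later stages, by 1.22 (standard error 0.14) and 1.12 (0.14), or 2.33-fold and 2.17-fold. Knockdown SNM cells stood at least 2.38-fold above knockdown ES cells.

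Aldh1a3, on chromosome 7, encodes retinal dehydrogenase 3. Its brightest probe was not detected at the ES stage. The control signals were 7.25, 7.12 and 7.06 in SNM cells and 8.35, 8.17 and 8.32 in neuronal cells, and the knockdown signals were 6.74, 6.50 and 6.61, and then 6.35, 6.34 and 6.25. From the SNM to the neuronal stage the control mean of this probe thus went up by 1.13 (standard error 0.09). Its knockdown mean went from 6.62 to 6.31. Knockdown and control arrays were apart at either stage. The knockdown difference was -0.53 (0.09) at the SNM stage, under the 1.5-fold minimum, and -1.97 (0.09) at the neuronal stage, a signal 74.4% lower. A second probe of Aldh1a3 gave -0.71 and -1.39 (standard error 0.20 each), which met the call rule at both stages. This probe did not rise in control cells, with means of 7.53 ± 0.35 in SNM and 7.26 ± 0.32 in neuronal cells. In knockdown cells its mean went from 6.83 to 5.87. It was also detected on 2 of 3 control ES arrays. The remaining probe was detected on no array.

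The remaining synthesis gene, Aldh1a2 on chromosome 9, encodes retinal dehydrogenase 2, the main source of retinoic acid in the early embryo. It stayed dim. In control SNM cells it read 5.38, 5.25 and 4.92, and in knockdown SNM cells 4.54, 4.78 and 4.64, with 1 of 3 knockdown arrays detected. Those arrays did not overlap, with a difference of -0.53 (standard error 0.17) that missed the 1.5-fold minimum. At the neuronal stage the means were 4.78 ± 0.02 and 4.65 ± 0.15 and the arrays overlapped. Its second probe was detected on 1 array, of knockdown SNM cells. Dhrs3, which encodes a reductase that turns retinal back into retinol, lies on chromosome 4 in the reference table; the array annotation gives it no chromosome. Its only probe was detected on no array, with condition means between 4.26 and 4.35, so nothing can be said of its level.

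Cyp26a1, on chromosome 19, encodes the best known enzyme of retinoic acid breakdown, and, like Stra6, it had its highest mean at the ES stage in both cell types. The control signals were 8.38, 8.52 and 8.32 in ES cells, 6.72, 6.58 and 6.74 in SNM cells, and 5.67, 5.80 and 5.85 in neuronal cells. In knockdown cells they were 8.23, 8.16 and 8.11, then 5.77, 5.63 and 5.49, and then 6.22, 6.22 and 5.87. The control level thus went down at each step, while the knockdown level was lowest at the SNM stage. The arrays did not overlap at any stage, yet the side changed, with a narrow gap at the neuronal stage (5.87 against 5.85). Knockdown minus control was -0.25 (standard error 0.10) in ES cells, -1.05 (0.10) in SNM cells, a signal 51.7% lower, and 0.33 (0.10) in neuronal cells, under the 1.5-fold minimum. A dimmer second probe was detected on all arrays at the ES stage only, where it differed by -0.17 (0.12).

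Cyp26b1, on chromosome 6, encodes the related breakdown enzyme that acts in the hindbrain and limb. It was detected on all arrays only in control SNM cells, at 6.25, 6.12 and 6.57, and in control neuronal cells, at 5.90, 5.61 and 5.85. Knockdown arrays read 4.73, 4.49 and 4.66 at the SNM stage, of which 1 was detected, and 4.50, 4.31 and 4.44 at the neuronal stage, of which none was. The cell types were apart at both stages. The difference was -1.69 (standard error 0.12) in SNM cells, and in neuronal cells the knockdown signal was at least 2.06-fold lower (means of 4.42 and 5.79). At the ES stage only 1 array, of knockdown cells, detected it.

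Direct repeats of the receptor half-site were looked for in the promoters, because genes whose promoters carry them are textbook targets of retinoic acid receptors. The half-sites searched were AGGTCA or AGTTCA, and GGGTCA or GGTTCA, as head-to-tail pairs with a spacer of 1, 2 or 5 bases and on both strands, from 250 bases before to 50 bases after the start of transcription (RefSeq promoters, build GRCm38.p6). Promoters were listed for 7 of the 9 genes, in 13 windows; Crabp2 and Aldh1a3 had no entry. Among them only Cyp26a1 held such a pair, with a spacer of 5. The receptor gene Rarb, the only further gene looked up by name, held one with the same spacer. Pairs with this spacer stood in 0.0974% of all 32851 windows, with a spacer of 1 in 0.222% and with a spacer of 2 in 0.268%. Counted over 27025 genes, the shares for spacers of 5, 1 and 2 were 0.115%, 0.263% and 0.311%. The 100 bases before the start are shown for both, 5′ to 3′ in the direction of the gene, with the half-sites in capitals. That of Cyp26a1 (chr19:37697708-37697807, plus strand) begins 32 bases before the start and reads on the opposite strand, and that of Rarb (chr14:16575477-16575576, minus strand) begins 53 bases before the start.
Cyp26a1: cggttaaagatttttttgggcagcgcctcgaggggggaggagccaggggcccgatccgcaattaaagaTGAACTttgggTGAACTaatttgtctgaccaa
Rarb: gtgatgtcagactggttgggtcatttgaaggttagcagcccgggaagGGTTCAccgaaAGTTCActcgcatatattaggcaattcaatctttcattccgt
The motif is a description of these letters, and binding was not measured. In control cells the signals of these genes ran in opposite directions over the stages. There Rarb had means of 5.10 ± 0.28 in ES, 6.20 ± 0.30 in SNM and 8.77 ± 0.14 in neuronal cells, while Cyp26a1 had 8.41 ± 0.10, 6.68 ± 0.09 and 5.77 ± 0.10. In knockdown cells the mean of Rarb went from 5.80 to 8.35 between the later stages, and that of Cyp26a1 also went up, from 5.63 to 6.10.

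Counted over the genes, the knockdown differences were small at the ES stage and mostly downward later. None of the 4 genes tested at the ES stage was called, where 1.68% of all probes tested were called in either direction, and their differences lay between -0.21 and -0.47. Of 7 tested at the SNM stage, 4 were called lower (Crabp1, Crabp2, Cyp26a1 and Cyp26b1) and 1 higher (Aldh1a1), against 8.9% and 11% of all probes. Of 8 tested at the neuronal stage, 4 were called lower (Crabp1, Crabp2, Aldh1a3 and Cyp26b1) and 1 higher (Aldh1a1), against 13.5% and 13.9%. The median difference of the tested genes was -0.25, -1.05 and -0.71 at the 3 stages, and that of all tested probes 0.01, -0.04 and 0.01. Since the genes were picked from these signals, the counts describe them and are no evidence about the pathway. Without background correction no sign changed among these called genes and each still met the call rule, but dim genes differed less. Aldh1a1 then differed by 0.61 and 0.59 at the later stages and Cyp26b1 by -0.84 and -0.67 (quantile normalization), and Crabp2 at the neuronal stage by -1.01. Stra6 at the ES stage met the call rule, at -0.75, only when knockdown replicate 1 was left out. At the SNM stage Aldh1a2 met it without control replicate 3 (-0.65), and Aldh1a3 without knockdown replicate 1 (-0.59) or as the mean over its detected probes (-0.62). The change of the knockdown effect from the ES to the SNM stage met the call rule for 6 of 8 genes, against 21.3% of all probes. For Aldh1a1, Aldh1a2 and Cyp26b1 among them, the ES signals were below the detection filter in both cell types, so that the change is that of the SNM difference against background. From the SNM to the neuronal stage it did so for 3 of 8, against 28.6%. The latter were Crabp2, at 0.63 (standard error 0.19), Aldh1a3, at -1.44 (0.13) on its brightest probe, and Cyp26a1, at 1.38 (0.14). On the second probe of Aldh1a3 the change was smaller. Its control and knockdown means were 7.53 and 6.83 in SNM and 7.26 and 5.87 in neuronal cells.

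**Figure D2:**
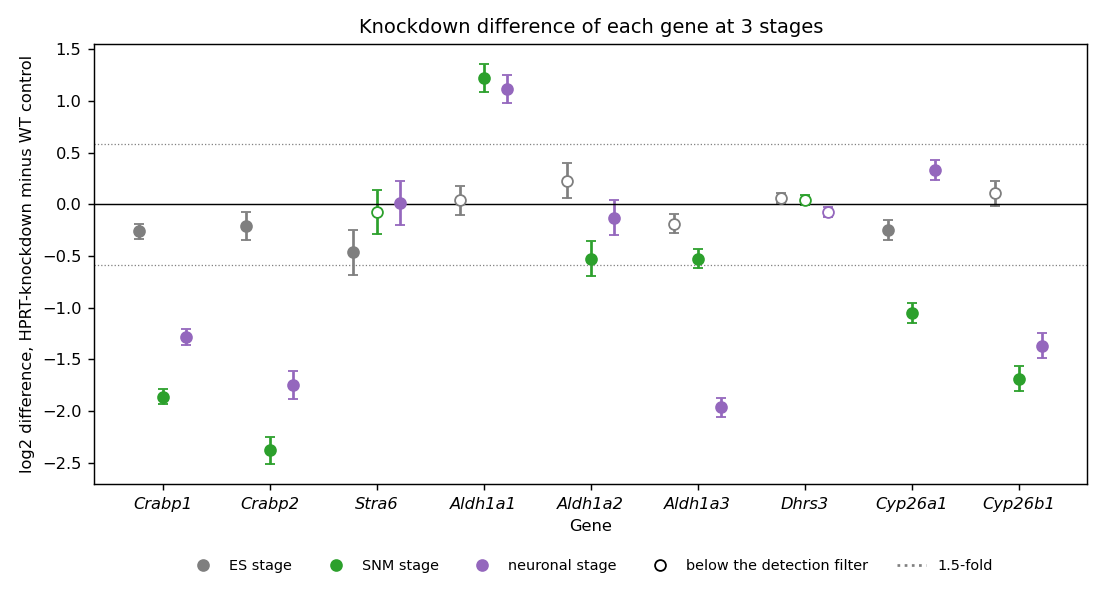
Difference in log2 signal between HPRT-knockdown and WT control cells (vertical axis) for each gene (horizontal axis) at the ES, SNM and neuronal stages, with standard errors from the limma fit. Open circles are comparisons below the detection filter and dotted lines mark 1.5-fold; Aldh1a1 lies above 0 at both later stages (1.22 and 1.12), and Cyp26a1 is at -1.05 in SNM and at 0.33 in neuronal cells.

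The course over differentiation was also counted for each cell type. From the ES to the SNM stage in control cells, 5 of 7 tested genes were called higher (Crabp1, Crabp2, Aldh1a2, Aldh1a3 and Cyp26b1), against 23.7% of all probes, and 2 lower (Stra6 and Cyp26a1), against 25.4%. In knockdown cells 4 of 5 were called higher (Crabp1, Crabp2, Aldh1a1 and Aldh1a3), against 26.4%, and 1 lower (Cyp26a1), against 30.9%. Crabp1 went up by 3.20 in control and by 1.60 in knockdown cells, with a standard error of 0.07 each. In control cells going from SNM to neuronal, 1 of 7 was called higher, against 14.3%. This was Aldh1a3, whose second probe did not rise. Called lower were 3 (Crabp1, Crabp2 and Cyp26a1), against 15.1%. In knockdown cells none of 6 was called higher, against 13.8%, and 2 were called lower (Crabp1 and Crabp2), against 14.8%. Only Crabp1 and Crabp2 were thus called in both steps in both cell types, up and then down.

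Over all 18 arrays, which come from 6 RNA pools, the signals of Crabp1 and Crabp2 followed each other with a correlation of 0.94. Cyp26a1 ran against Aldh1a3 (-0.85) and against Aldh1a1 (-0.84). These are descriptions over arrays that share pools. Among 3774 other genes whose condition means spanned at least 2 on the log2 scale, the closest to Crabp1 were Cartpt (correlation 0.98), also listed as Cart with the same transcript, and C730009D12. The closest to Crabp2 were Neurod4 and Nefm (0.98 and 0.97), and 13 genes in all were above 0.9. Aldh1a1 was closest to Smox, Slc39a12 and Itgbl1 (0.98 each), Aldh1a3 to Rcan2, 5033414K04Rik and Col5a2 (0.99 each), and Cyp26a1 to C130032J12Rik, Oxsr1 and Fkbp5 (0.99 each). For Cyp26a1, 612 genes were above 0.9, for Aldh1a3 394 and for Aldh1a1 331, so that their patterns were common ones. For Crabp1 there were 41.

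The other genes of the pathway were taken from 4 lists of 58 genes, of which 51 were on the array and 36 were detected on all arrays of at least 1 condition. These lists, too, were drawn up with results of these data known, so their counts are a description. Each p-value was adjusted over all probes tested and sets a difference between RNA pools against array error. The shares called over all probes are those given above for the 9 genes. For the carriers, enzymes, receptors and responsive genes, rose and fell at a stage mean higher and lower in knockdown than in control cells of that stage. Values from and to are then those of control and knockdown cells. Changes over differentiation are named as such. Among the carriers of retinoids, none of 3 tested was called at the ES stage, 2 rose and 1 fell of 5 at the SNM stage, and 3 rose of 5 at the neuronal stage. Ttr, which encodes transthyretin, the partner of the serum retinol carrier, rose from 5.64 ± 0.05 to 8.51 ± 0.06 (SD, n = 3 arrays of one RNA pool) at the SNM stage (difference 2.87, limma adjusted p = 1.45e-13) and by 0.61 at the neuronal stage (adjusted p = 5.15e-06). The neuronal call of Ttr was lost without control replicate 2 (0.56) or knockdown replicate 1 (0.55). Rbp4, the serum retinol carrier itself, rose by 0.67 at the SNM stage (adjusted p = 0.00016). The carriers did not move as one group. Rlbp1, which encodes a retinal binding protein known from the retina and glia, fell by 1.14 at the SNM stage (adjusted p = 1.71e-07) but at the neuronal stage stood at least 7.25-fold above control cells (adjusted p = 3.2e-13). Fabp5, a fatty acid binding protein that also binds retinoic acid, rose by 1.80 at the neuronal stage (adjusted p = 7.06e-12).

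Of the dehydrogenases and other enzymes, none of 8 tested was called at the ES stage, 1 rose of 8 at the SNM stage, and 4 rose and 1 fell of 10 at the neuronal stage. Rdh5, a retinol dehydrogenase, rose from 5.16 ± 0.19 to 7.81 ± 0.08 at the SNM stage (difference 2.65, limma adjusted p = 1.13e-09) and by 1.33 at the neuronal stage (adjusted p = 1.82e-06). Rdh9 and Rdh12, of the same enzyme group, rose by 1.32 and 1.13 at the neuronal stage (adjusted p = 1.9e-08 and 1.44e-07). Adh1, an alcohol dehydrogenase that oxidizes retinol, fell by 2.54 at the neuronal stage (adjusted p = 2.2e-13), and its second probe fell too. Aldh1a7, a close relative of Aldh1a1, read 7.30 ± 0.17 in control and 7.23 ± 0.11 in knockdown SNM cells, and rose from 5.48 ± 0.21 to 8.10 ± 0.04 at the neuronal stage (difference 2.62, adjusted p = 3.85e-12). Aldh1a1 was higher in knockdown cells at both stages; whether its probe also reads Aldh1a7 RNA was not tested.

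The list of receptors and their co-regulators had 1 of 7 tested genes called at each stage. Rarg, which encodes retinoic acid receptor gamma, rose by 0.60 at the SNM stage (limma adjusted p = 8.16e-06), and its second probe rose by 0.70. Its call was lost without background correction (difference 0.36 after quantile normalization) and when control replicate 1 (0.56), control replicate 3 (0.58) or knockdown replicate 1 (0.56) was left out. Rxra, the alpha form of the partner receptor, rose by 0.65 at the neuronal stage (adjusted p = 7.07e-06), and Nrip1, a corepressor, fell by 0.65 at the ES stage (adjusted p = 0.0242). Rarb was not called in the knockdown comparison at any stage, with differences of -0.20, -0.40 and -0.42 (standard error 0.20 each), but rose over differentiation in both cell types. From the SNM to the neuronal stage it rose by 2.57 in control (adjusted p = 1.21e-08) and by 2.56 in knockdown cells (adjusted p = 1.25e-08). Rara was tested at the ES stage only, at 5.87 and 5.72. Rxrb lay between 9.75 and 10.23 in all conditions and was not called, and Rxrg differed by -0.47 at the SNM stage and by 0.53 at the neuronal stage, both under the fold minimum, while the change between them, 0.99, met the call rule (adjusted p = 0.000482).

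Textbook responsive genes of retinoic acid moved both ways. At the ES stage 1 of 9 tested genes rose (Stra8, by 0.60, limma adjusted p = 0.00524) and 1 fell (Zfp703, by 0.60, adjusted p = 0.000146; its second probe differed by -0.58, just under the fold minimum). These ES calls and that of Nrip1 were all lost without background correction and without knockdown replicate 1. At the SNM stage 3 of 9 rose and none fell. Foxa1, a transcription factor of endoderm and floor plate, rose by 2.27 (adjusted p = 3.16e-08), Tgm2, a transglutaminase, by 2.01 (adjusted p = 9.45e-13), and the homeobox gene Hoxd4 by 0.84 (adjusted p = 4.42e-07). At the neuronal stage 1 of 10 rose and 5 fell. The gene that rose was Foxa1, by 2.00 (adjusted p = 6.71e-08). Tgm2 now fell by 1.15 (adjusted p = 2.3e-10), as did the homeobox genes Meis1, by 1.29, and Meis2, which fell by 1.45 (adjusted p = 4.56e-10 and 1.95e-07), the receptor Nr2f2, by 1.08 (adjusted p = 0.00072), and Stra8, by 0.78 (adjusted p = 4.36e-05). A second probe of Meis1 differed by -0.57 and was not called. Over all 4 lists, 3 of 27 tested genes were called at the ES stage, 7 rose and 1 fell of 29 at the SNM stage, and 9 rose and 6 fell of 32 at the neuronal stage, where the median difference was 0.05. Over all probes the shares called were 1.68% in either direction at the ES stage, 11% higher and 8.9% lower at the SNM stage, and 13.9% higher and 13.5% lower at the neuronal stage.

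**Figure D3:**
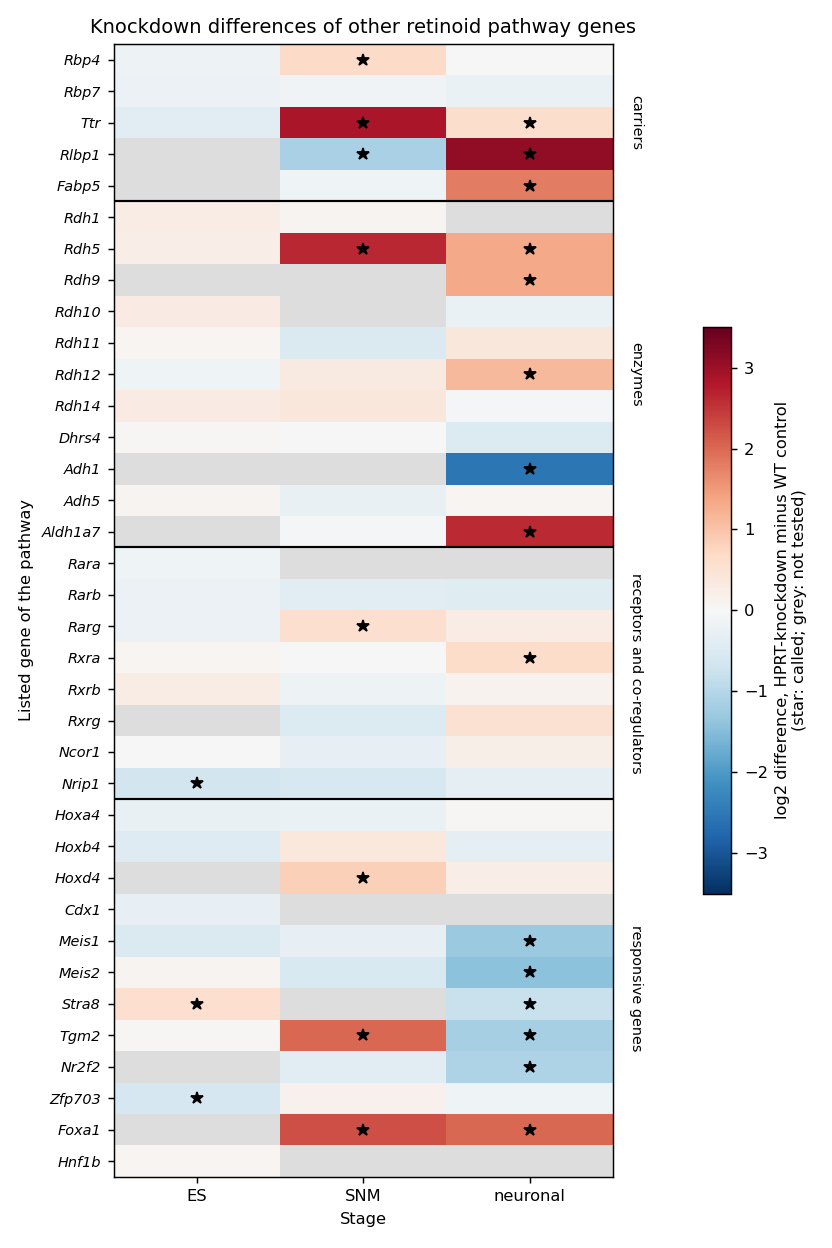
Difference in log2 signal between HPRT-knockdown and WT control cells (colour) for the listed pathway genes tested at any stage (rows, grouped by list), at the ES, SNM and neuronal stages (columns). Stars mark called genes and grey cells were not tested; Ttr (2.87) and Rdh5 (2.65) are highest at the SNM stage, and Rlbp1, with a fitted difference of 3.09, is highest at the neuronal stage.

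Markers of several cell types moved with the knockdown at the same stages, and their part in the differences above was not tested. The shares called over all probes, given above, were 11% higher and 8.9% lower in SNM cells and 13.9% and 13.5% in neuronal cells. At the SNM stage, 5 of 7 tested oligodendrocyte markers were called lower and their summed signal was 6443 to 6828 in control and 2065 to 2422 in knockdown cells; all 8 were detected on at least 1 control array, and Mog on none of the knockdown arrays. Of 8 astrocyte and radial glia markers 4 were called higher, with sums of 8609 to 9364 and 15680 to 16930. Skeletal muscle markers were called higher for 6 of 7, with sums of 1476 to 1505 and 2855 to 3073, and Ckm was not detected. The meninges list summed to 5122 to 5326 in control and 19770 to 20790 in knockdown cells, with 3 of 6 called higher and 1 lower. This list and the choroid plexus list share genes with other tissues, so neither is read as a sign of that cell type. The sum of the neuron list overlapped between the cell types, at 6611 to 7233 in control and 6537 to 7188 in knockdown cells. Of its 7 tested markers 1 was called higher and 1 lower. The dopaminergic list summed to 1598 to 1641 and 908 to 1023, with 1 of 4 tested called higher and 2 lower. The pluripotency list summed to 4452 to 4817 and 2987 to 3144, with 4 of 6 called lower. The eye and pigment epithelium list was near background, at 165 to 175 and 186 to 210. Six6 and Tyr were detected on no array of either cell type, and Rax and Six3 on no control array. The endoderm list summed to 251 to 261 and 361 to 362, with Afp and Gata4 undetected in both. Apoa1 and Cubn were undetected in control cells only. Fibroblast and mesenchyme markers were called higher for 3 of 8, with sums of 6688 to 7291 and 7592 to 9399. The choroid plexus sums overlapped (1946 to 2789 and 2582 to 3341), with 3 of 6 called higher. At the neuronal stage the picture differed for several lists. Astrocyte and radial glia markers stayed higher in knockdown cells, with 5 of 8 called higher and 1 lower. Their sums were 8920 to 9573 in control and 14900 to 15710 in knockdown cells. The endoderm sum also stayed higher in knockdown cells, at 624.9 to 662.6 against 298.5 to 306.1, with 3 of 5 called higher. The muscle sum was 69910 to 70980 in control and 308 to 420 in knockdown cells (8 of 8 lower, with Ckm, Myog and Chrna1 undetected in knockdown cells), and the oligodendrocyte sum was 735 to 835 and 39640 to 42600 (8 of 8 higher). Fibroblast and mesenchyme markers were called lower for 6 of 8, with sums of 22110 to 25840 and 12130 to 15640. The choroid plexus list summed to 1547 to 2176 and 7062 to 9576, with 3 of 6 called higher, 1 lower and Kl undetected. The meninges sum was now lower in knockdown cells, 12660 to 13220 against 25410 to 25720, with 3 of 7 called lower and 1 higher. The pluripotency sum was 3511 to 3739 in control and 889 to 974 in knockdown cells, with 6 of 6 called lower. Neuronal markers were called lower for 4 of 7, with sums of 11110 to 11690 and 5853 to 6540. Snap25 was detected in neither cell type, and Tubb3 on no knockdown array. Of the 8 dopaminergic markers listed, 4 were detected on all neuronal arrays of each cell type. The sum of the list was 1737 to 1976 in control and 3494 to 3643 in knockdown cells, with 1 of 4 tested called higher. Pitx3 and Lmx1b were detected on no neuronal array of either cell type, Slc6a3 on no control array and Th on no knockdown array. At the ES stage the pluripotency sum was 27470 to 27860 in control and 25700 to 29020 in knockdown cells, with none of 7 markers called.

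**Figure D4:**
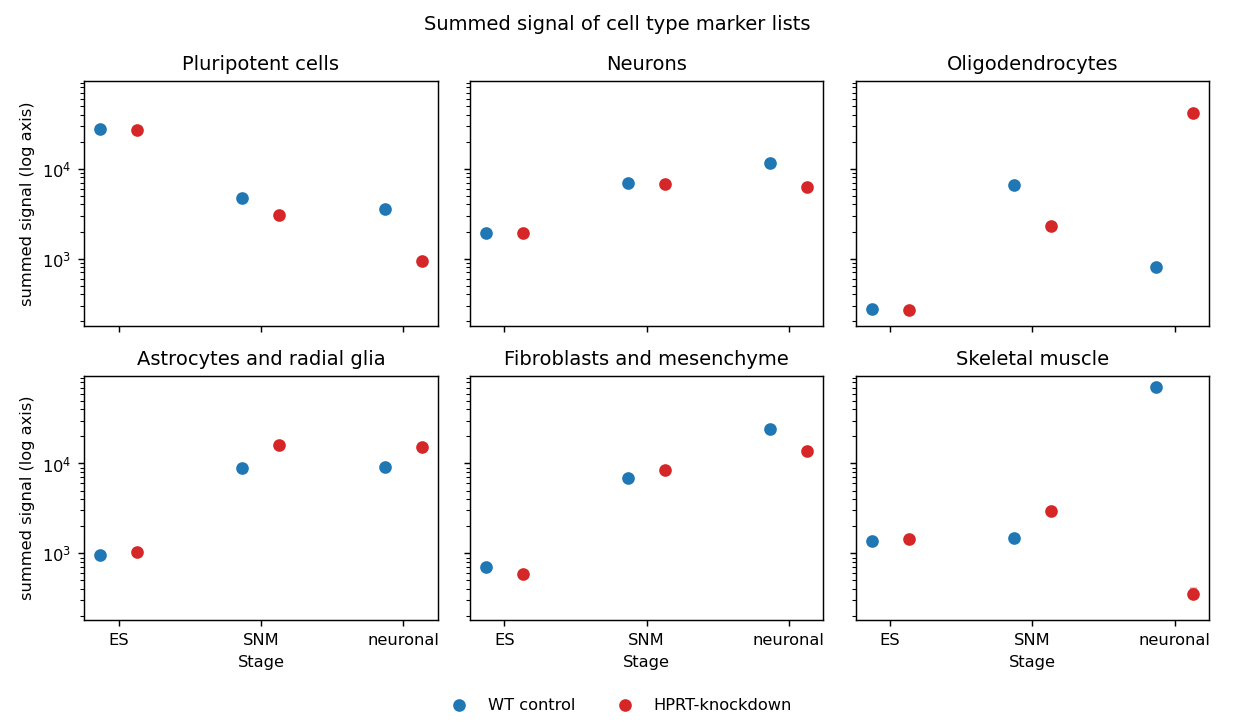
Summed linear signal (vertical axes, log scale) of 6 cell type marker lists by stage (horizontal axes) in WT control (blue) and HPRT-knockdown cells (red). Points are means of 3 arrays and the bars behind them, mostly hidden, span the arrays; at the neuronal stage the skeletal muscle sum is 70290 in control and 349 in knockdown cells.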

How the data were processed

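Total RNA of each condition was pooled over replicate cultures and hybridised by the authors to 3 Illumina MouseWG-6 v2 arrays. The deposited values are the bead signal intensity of 45281 probes, without background subtraction or normalization, and a detection p-value that the authors' scanner software gives for each probe and array. A second deposited table gave only the probe annotation; its 72 columns of per-array values could not be paired with samples and were not used. Conditions and array numbers came from the sample titles. Each array's detection p-values followed its own signals most closely on all 18 arrays, and none repeated another's values.

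Signals were normalized with neqc (limma 3.58.1, R 4.3.3), with background from the detection p-values, an offset of 16, quantile normalization and log2. One limma model of the 6 conditions was fitted to all 18 arrays, and p-values were adjusted by Benjamini-Hochberg over the probes tested, two-sided. Groups of 3 arrays limit the precision, and an exact permutation test of 3 against 3 could not fall below 0.1. The fit and the call rule alone were tried on simulated log2 signals with independent noise and added changes. Normalization, the shared pools and the correlation between equal array numbers were not part of that trial. The brightest probe over all arrays represents a gene, and the genes named are the 9 above, each nuclear receptor and every listed gene called in a knockdown comparison. Where no array of a condition detected a probe, the fold is a lower bound, taken against each array's dimmest detected signal or the probe's own, whichever was higher. Summed marker signals include the offset of each probe. Some listed genes are not reported here and were left out of the lists. Genes and lists were chosen with earlier results of these data known. For every one of the 3 pairs of equal array numbers, deviations from the condition means correlated above 0.1 between knockdown and control cells at the SNM stage (0.49, 0.11 and 0.49) and between the stages of knockdown cells from SNM to neuronal (0.52, 0.14 and 0.51), while in the other comparisons at least 1 pair was lower (knockdown against control at the neuronal stage 0.61, 0.09 and 0.32), and the array number was run as a block.
The alternatives were 2 normalizations of the uncorrected signals (quantile, and scaling to the 75th percentile), no detection filter, a detection p-value under 0.01, a minimum of 2-fold, only the compared arrays in the fit, the array number as a block, each array left out, the methods' t-test, and the mean over detected probes of a gene. The array's build is not given in the sources used here.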

Additional observations from a re-analysis of the deposited data

Results flagged for a closer look

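Cyp26a1 is listed because its knockdown arrays lay below the control arrays at the ES and SNM stages (-0.25 and -1.05 on the log2 scale). At the neuronal stage they lay above them (0.33), but narrowly, with the lowest knockdown array at 5.87 and the highest control array at 5.85. The neuronal difference was 0.19 after quantile normalization without background correction. How many of all probes change sides in this way was not counted. The change from SNM to neuronal, 1.38, is a description with no p-value, as the gene was chosen from these signals.

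For the listed pathway genes, the limma fit also tested how the knockdown effect differed from stage to stage, and the values below passed at an adjusted p-value under 0.05 and 1.5-fold. From the ES to the SNM stage the effect rose for Ttr (3.25), Rdh5 (2.43), Tgm2 (1.98), Rbp4 (0.84), Rarg (0.80) and Zfp703 (0.75) on the log2 scale, and fell for Meis2 (-0.62).

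From the SNM to the neuronal stage the effect rose for Aldh1a7 (2.69), Fabp5 (1.96), Rxrg (0.99), Rdh11 (0.90), Rdh12 (0.82) and Rxra (0.67). It fell for Tgm2 (-3.17), Ttr (-2.26), Rdh5 (-1.32), Meis1 (-1.003), Meis2 (-0.92), Rbp4 (-0.69) and Hoxd4 (-0.59). Tgm2, Ttr, Rdh5 and Rbp4 thus passed in both steps with opposite signs. The SNM difference enters the steps with opposite signs, so these are not separate results.

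Other fitted changes passed the same rule but rest on background readings, and are not read as differences between the effects. In the step from ES to SNM, the comparison at the ES stage was below the detection filter for Foxa1 (1.88), Hoxd4 (0.96) and Rlbp1 (-1.43), and that at the SNM stage for Stra8 (-0.61). In the step from SNM to neuronal, the SNM comparison was below the filter for Rdh9 (1.35), Adh1 (-2.53) and Stra8 (-0.77), and no control neuronal array detected Rlbp1 (4.24).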

How the results depend on the processing

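Since each condition is 1 RNA pool, no alternative tells how far cultures differ, and dim probes near background understate a change. Between knockdown and control cells at the SNM and neuronal stages, none of the calls of the 9 genes was lost under any alternative run, and no called difference changed sign. Of 532 differences of these genes under alternatives, 503 moved by less than 1 SD and 29 by more. Several alternatives change only the filter, the fold minimum or the error estimate, so the difference itself could not move. Without background correction, most differences at the SNM and neuronal stages moved by over 1 SD, each to a smaller size. Of 728 differences of called pathway genes, 681 kept their call and 47 lost it, all with the same sign. The array number as a replicate block changed no call of the 9 genes (5 called in SNM and 5 in neuronal cells) and moved no count of calls by over 1.5 times.

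Counts of called pathway genes moved at the ES stage from 3 to 0 under quantile normalization or 75th percentile scaling without background correction, a minimum of 2-fold, and the methods' t-test after adjustment, and at the SNM stage from 8 to 4 under quantile normalization without background correction and to 5 at 2-fold; the cause was not tested. Counts of the 9 genes moved from the SNM to the neuronal stage from 4 to 2 in control cells with the mean over detected probes and from 2 to 1 in knockdown cells at 2-fold, and for the effect from the ES to the SNM stage from 6 to 3 under quantile normalization.

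With each array left out in turn, the pathway count was 0 to 3 at the ES stage (0 without knockdown replicate 1, 1 without control replicate 3), 7 to 10 at the SNM stage and 14 to 16 at the neuronal stage, and the count of the 9 genes was 0 to 1, 5 to 6, and 5 at the same stages. It was 6 to 8 and 5 to 6 from the ES to the SNM stage in control and knockdown cells, 4 to 5 and 2 to 3 from the SNM to the neuronal stage, and 5 to 7 and 2 to 4 for the changes of the effect. Over all probes, the counts of knockdown calls went from 310, 4127 and 5732 to 57, 2326 and 3690 under quantile normalization, to 56, 2452 and 3760 under 75th percentile scaling, and to 25, 1267 and 2636 at 2-fold, and the ES count to 78 with the methods' t-test after adjustment.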
